A study of Mus musculus with 6 samples.

Results

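The accessible regions at 7 genes of the choice between the CD4 and the CD8 T cell lineage, *Cd4*, *Cd8a*, *Cd8b1*, *Zbtb7b*, *Runx1*, *Runx3* and *Cbfb*, were compared between splenic Tregs of *Foxp3creCREBfl/fl* mice, in which CREB was deleted by a Cre under control of *Foxp3*, and splenic Tregs of Cre-negative *CREBfl/fl* mice. Members were chosen by position: every peak of either group that overlapped the body of one of these genes, with 10 kb added on each side. After peaks of both groups that overlapped by at least 1 bp were joined, 102 of 104845 regions belonged to these genes. They came from 88 peaks of *Foxp3creCREBfl/fl* Tregs and 99 peaks of *CREBfl/fl* Tregs.

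Both groups were of C57BL/6 background and 6 to 12 weeks old, and both carried the floxed *Creb1* alleles, so that they differed by the Foxp3-IRES-Cre, which acts only in cells that express *Foxp3*. Accessibility was measured by ATAC-seq, in which a transposase cuts open chromatin, with 3 libraries per group by the labels, whereas the study's methods speak of sequencing in duplicate. Each group is given as 1 list of peaks, in which the libraries had already been joined, and how they were joined is not given in the sources used here. The spread between mice can therefore not be estimated, no p-value is given, and every interval below covers counting error only.

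CD4 and CD8 are the coreceptors with which T cells read peptides on MHC class II and class I molecules, and a thymocyte that has carried both keeps 1 of them. *Zbtb7b* encodes ThPOK, the factor that commits cells to the CD4 lineage and represses CD8 lineage genes, among them *Runx3*. RUNX1 and RUNX3 bind DNA together with their partner CBFβ. RUNX3 silences *Cd4* and supports *Cd8* expression in CD8 T cells, where it is made from a distal promoter. Tregs derive mostly from CD4 lineage cells.

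In these data the distal promoter of *Runx3* was less accessible in *Foxp3creCREBfl/fl* Tregs, with the lowest ratio of all shared regions of the 7 genes on the scale of pileup over the genome background. On the scale of the authors' fold over a local background it was lower by less, and 6 of the 74 regions had lower ratios. The most accessible region of *Cd4* and 3 regions of intron 2 of *Runx1* were also lower on the pileup scale. The distal promoter of *Runx1* and an internal promoter of *Zbtb7b* were higher. A region at the proximal promoter of *Runx1* was higher on the pileup scale only. The main promoters of *Cd4*, *Zbtb7b* and *Cbfb* differed by less than the counting error, and *Cd8a* had no accessible promoter in either group.

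Each region was described by its summit pileup, the number of sequenced fragments that cover its highest point. The genome background, the number expected at an average position, was 5.09 fragments in the *Foxp3creCREBfl/fl* list and 8.44 in the *CREBfl/fl* list, so that the *CREBfl/fl* list was 1.66 times deeper. Pileups were divided by this background before groups were compared. The log2 ratio of *Foxp3creCREBfl/fl* over *CREBfl/fl* was then taken relative to the median of all 82006 regions compared, which was 0.15 before it was set to 0. A region is called lower or higher where the 95% counting interval of this ratio leaves out 0.

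Treg markers were open in both groups. All 6 Treg markers examined, *Foxp3*, *Il2ra*, *Ctla4*, *Ikzf2*, *Nrp1* and *Tnfrsf18*, had a region within 1 kb of a start site, at 48.4 to 121 times the background in *Foxp3creCREBfl/fl* Tregs and 47.0 to 116 times in *CREBfl/fl* Tregs. Of 10 genes of CD8 T and NK cells, 8 had such a region in each group, *Ncr1* and *Cd8a* had none, and the summed level was 109 and 116 times the background in *Foxp3creCREBfl/fl* and *CREBfl/fl* Tregs. The B cell genes *Cd79a* and *Blk*, the myeloid genes *Csf1r* and *Lyz2* and the erythroid gene *Hba-a1* had none in either group. Other markers of these cell types were open, the erythroid *Klf1* at 75.3 and 66.8 times the background and the myeloid *Spi1* at 54.1 and 41.1 and *Cebpa* at 49.3 and 39.6 in *Foxp3creCREBfl/fl* and *CREBfl/fl* Tregs, levels within or near the range of the Treg markers. The summed levels were 53.1 and 41.3 for B cells, 126 and 104 for myeloid cells and 141 and 137 for erythroid cells, in *Foxp3creCREBfl/fl* and *CREBfl/fl* Tregs. Their part in the differences below was not tested, and a smaller share of cells with an open region cannot be told apart from a region that is less open in each cell. The promoter of *Creb1* itself had a pileup of 757 in *Foxp3creCREBfl/fl* and 1065 in *CREBfl/fl* Tregs, a ratio of 0.09 (-0.05 to 0.22). An open promoter does not show whether the floxed part of the gene was lost, so the genotype was not checked by it.

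Of the 102 regions, 74 were shared by both groups, 4 were found only in *Foxp3creCREBfl/fl* Tregs and 24 only in *CREBfl/fl* Tregs. The 4 made up 4.55% of the *Foxp3creCREBfl/fl* peaks at these genes (Wilson 95% interval 1.78 to 11.1), against 6.61% over that whole list. The 24 made up 24.2% of the *CREBfl/fl* peaks (16.9 to 33.5), against 16.4% over that whole list. The *CREBfl/fl*-only regions were small. Their pileups ran from 21 to 116 with a median of 37, and 20 of the 24 had a pileup of at most 50. Of the 31 regions of the *CREBfl/fl* list at these genes with such a pileup, these 20 (64.5%) were found in that list alone, against 43.5% over all its regions of that pileup. A -log10 p of at least 8 was then required in both lists. For this, *CREBfl/fl* pileups and backgrounds were divided by the 1.66-fold difference in depth, and those of the shallower *Foxp3creCREBfl/fl* list were left unchanged. Of the 4 *Foxp3creCREBfl/fl*-only regions 0 were left, against 41.0% of such regions over the whole list. Of the 24 *CREBfl/fl*-only regions 3 were left, against 16.6%.

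**Figure D1:**
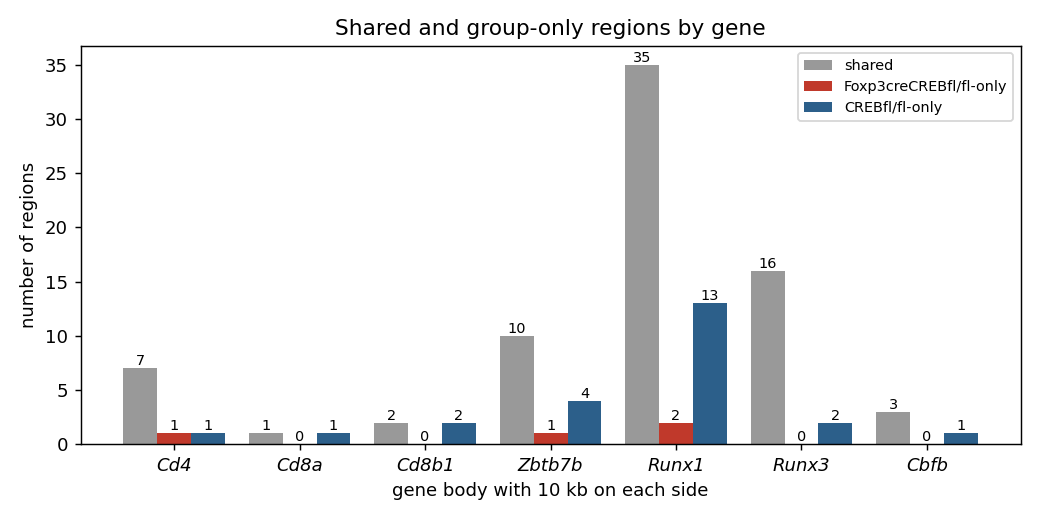
Number of regions of each gene, with 10 kb on each side, that were shared by both groups (grey), found in *Foxp3creCREBfl/fl* Tregs only (red) or in *CREBfl/fl* Tregs only (blue). *Runx1*, the longest gene, held 35 of the 74 shared regions and 13 of the 24 *CREBfl/fl*-only regions.

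All 74 shared regions could be compared. Their median log2 ratio was -0.02, with 50% of them between -0.14 and 0.15, against -0.17 to 0.16 over all regions. Of the 74 ratios, 41 lay below 0 and 33 above it. There were 5 lower regions (6.76%, against 7.88% of all regions compared) and 6 higher regions (8.11%, against 5.47%). These shares are near those of the genome at large. With a change of 1.5-fold as the threshold, 1 region was lower (3.29% over all) and 1 was higher (2.64% over all). No region passed a threshold of 2-fold and 5 counting SDs in either direction (0.118% lower and 0.0829% higher over all). By place, 12 shared promoter regions had a median of -0.01, 51 shared intron regions one of -0.03 and 8 shared intergenic regions one of 0.045. The summits of the 2 groups lay a median of 5 bp apart at these genes and 7 bp apart over all regions.

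**Figure D2:**
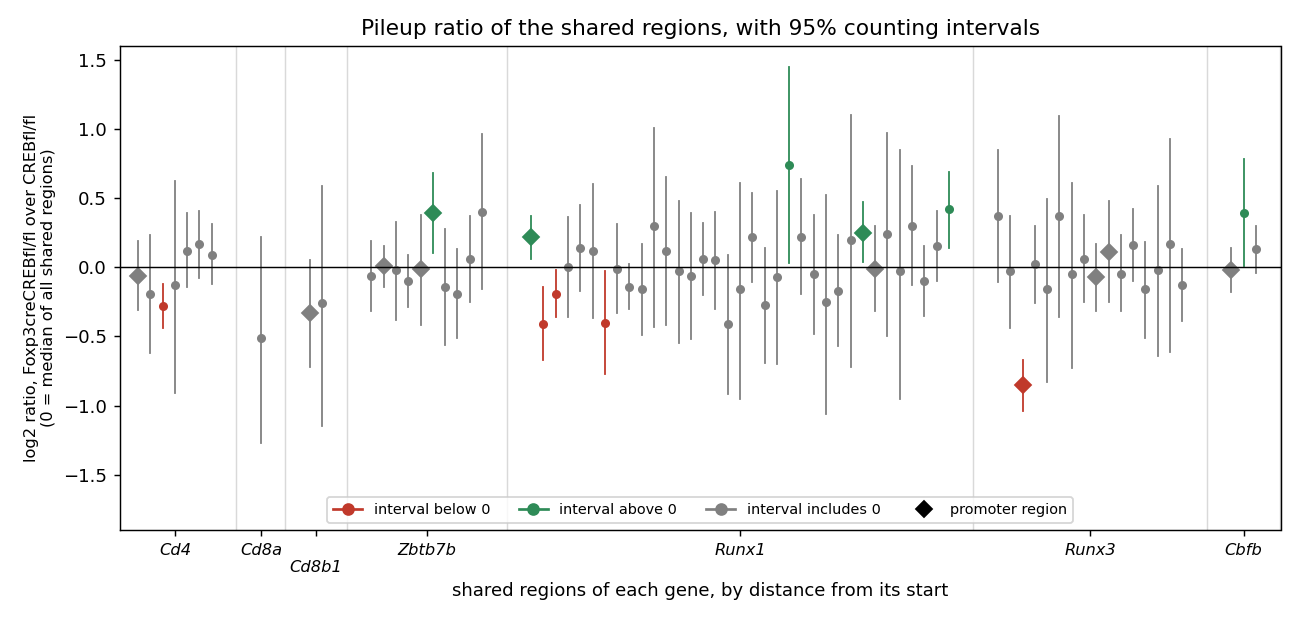
Log2 pileup ratio of *Foxp3creCREBfl/fl* over *CREBfl/fl* for the 74 shared regions, grouped by gene and ordered by distance from the start, with 95% counting intervals; 0 is the median of all shared regions of the genome. The *Runx3* distal promoter, at -0.85, is the lowest point, and the intervals of 5 regions lie below 0 and of 6 above it.

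*Cd4* encodes the coreceptor that Tregs carry (chr6:124864692-124888221, minus strand, GRCm38). Its window held 9 regions, of which 7 were shared, 1 was found only in *Foxp3creCREBfl/fl* and 1 only in *CREBfl/fl* Tregs, and the median ratio was -0.06. The promoter region, with its summit 0.01 kb before the start, had a pileup of 217 in *Foxp3creCREBfl/fl* and 338 in *CREBfl/fl* Tregs. These are 42.7 and 40.0 times the background, and the ratio of -0.06 (-0.31 to 0.19) did not differ beyond counting error. The most accessible region of the gene lay in intron 1, 2.88 kb after the start (chr6:124885155-124885711). It had 510 fragments in *Foxp3creCREBfl/fl* and 926 in *CREBfl/fl* Tregs, 100 and 110 times the background. Its ratio of -0.28 (-0.44 to -0.12) made it lower in *Foxp3creCREBfl/fl* Tregs. Without the shift to the median the ratio was -0.13 (-0.29 to 0.03), which no longer excludes 0. Of 4330 regions with a *CREBfl/fl* pileup within 1.25-fold of this one, 192 were as low (4.43%). Such shares, here and below, were computed for a few regions, mostly ones whose interval left out 0, and are no test.

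The rest of *Cd4* was little different between the groups. Next to the region just named, still in intron 1, a smaller one with 2 RUNX words had 75 fragments in *Foxp3creCREBfl/fl* and 128 in *CREBfl/fl* Tregs (-0.19, -0.62 to 0.23). A weak region of intron 3 had 25 and 41 fragments in *Foxp3creCREBfl/fl* and *CREBfl/fl* Tregs (-0.13, -0.91 to 0.62). The *Foxp3creCREBfl/fl*-only region, with 58 fragments, was in intron 1 at 1.53 kb. The *CREBfl/fl*-only region, with 83 fragments, lay 0.47 kb before the start and 82 bp from the promoter region that both groups share. Beyond the 3' end, in and beside *P3h3* and *Gpr162*, 3 shared regions had ratios of 0.09, 0.17 and 0.12. The one in *Gpr162* had the highest ratio of the window, with 246 fragments in *Foxp3creCREBfl/fl* and 328 in *CREBfl/fl* Tregs (-0.08 to 0.41).

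The summit of the lower intron 1 region is shown because it holds a TGACG half-site (capitals, on the strand of the gene) of the element TGACGTCA, to which CREB binds. The half-site lies 42 bp from the summit, in chr6:124885278-124885428, minus strand. The half-site, searched on both strands, was present in 18.7% of all regions.

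Cd4 intron, summit: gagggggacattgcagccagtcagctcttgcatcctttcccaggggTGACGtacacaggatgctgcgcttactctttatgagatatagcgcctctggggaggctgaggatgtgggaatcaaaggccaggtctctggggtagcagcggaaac

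*Cd8a* and *Cd8b1* encode both chains of CD8, lie side by side (chr6:71373427-71379173 and chr6:71322788-71337494, plus strand) and are silent in CD4 lineage cells. Together they held 6 regions, 3 of them shared and 3 found only in *CREBfl/fl* Tregs. The latter had 28 to 34 fragments. Over all *CREBfl/fl* regions of at most 50 fragments, 43.5% were found in that list alone. No region lay within 1 kb of the 2 start sites of *Cd8a* in either group. Its only shared region, in coding exon 5, was weak, with 24 fragments in *Foxp3creCREBfl/fl* and 51 in *CREBfl/fl* Tregs (-0.51, -1.27 to 0.22). The lowest pileup called at the genome background was 14 in the *Foxp3creCREBfl/fl* list and 19 in the *CREBfl/fl* list. A region of 30 fragments 8.42 kb after the start was found only in *CREBfl/fl* Tregs.

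*Cd8b1*, by contrast with *Cd8a*, had an open promoter in both groups. Its pileup was 89 in *Foxp3creCREBfl/fl* and 167 in *CREBfl/fl* Tregs, 17.5 and 19.8 times the background. The ratio was -0.33 (-0.72 to 0.05), so that the difference did not exceed counting error. These heights put it at the 30.4th percentile of promoter regions in *Foxp3creCREBfl/fl* and the 39.7th in *CREBfl/fl* Tregs. A region behind the gene had 19 and 34 fragments in *Foxp3creCREBfl/fl* and *CREBfl/fl* Tregs (-0.26, -1.15 to 0.59). The *CREBfl/fl*-only regions, of 34 and 28 fragments, were in an intron of *Smyd1* before the gene and in intron 3. The stretch of 35.9 kb between both genes, outside as well as inside their windows, held 4 regions in all, 1 of them shared and the other 3 *CREBfl/fl*-only at 26 to 29 fragments. All 3 shared regions of the *Cd8* genes had a ratio below 0, and each interval included 0.

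*Zbtb7b* (chr3:89377644-89394776, minus strand) was the most densely accessible gene of the 7, with 3.23 peaks in *Foxp3creCREBfl/fl* and 3.77 in *CREBfl/fl* Tregs per 10 kb of its window. It held 15 regions, 10 of them shared, with a median ratio of -0.02. The main promoter had 667 fragments in *Foxp3creCREBfl/fl* and 992 in *CREBfl/fl* Tregs. This was the highest pileup of all 102 regions in either group, and at 0.01 (-0.14 to 0.15) its ratio lay at the median. The second most accessible region, in intron 1 at 5.77 kb, had 382 fragments in *Foxp3creCREBfl/fl* and 613 in *CREBfl/fl* Tregs (-0.10, -0.29 to 0.09).

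The 1 region of *Zbtb7b* that differed beyond counting error was an internal promoter, over the start site of a shorter transcript 7.55 kb into the gene. It had 184 fragments in *Foxp3creCREBfl/fl* and 210 in *CREBfl/fl* Tregs, 36.2 and 24.9 times the background. The ratio was 0.39 (0.10 to 0.68), and 0.54 (0.25 to 0.83) without the shift to the median. Of 9827 regions of like pileup, 264 were as high (2.69%). The neighbouring region, over the start site of another short transcript, had 90 and 136 fragments in *Foxp3creCREBfl/fl* and *CREBfl/fl* Tregs (-0.01, -0.42 to 0.38). Whether the 2 ratios differ from each other was not tested. The highest ratio of the gene, 0.40, was at a small region of the last exon with 53 and 60 fragments in *Foxp3creCREBfl/fl* and *CREBfl/fl* Tregs, and its interval of -0.16 to 0.96 includes 0. The lowest, -0.19 (-0.51 to 0.13), was in intron 1 at 12.48 kb, with 129 and 220 fragments in *Foxp3creCREBfl/fl* and *CREBfl/fl* Tregs.

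Group-only regions of *Zbtb7b* were among the strongest of the 7 genes. The 1 *Foxp3creCREBfl/fl*-only region made up 9.09% of the gene's regions in that list, against 7.07% over all regions. The 4 *CREBfl/fl*-only regions made up 28.6%, against 16.8%. A region of 79 fragments at 9.09 kb was found only in *Foxp3creCREBfl/fl* Tregs, where it reached 15.5 times the background. A region of 116 fragments 1.22 kb before the start and one of 88 at 12.25 kb were found only in *CREBfl/fl* Tregs, 316 and 118 bp from a shared region. The other *CREBfl/fl*-only regions, of 35 and 45 fragments, were in *Dcst2*, the gene next to *Zbtb7b*. Over all regions with more than 50 and up to 100 fragments, 2.65% of the *Foxp3creCREBfl/fl* and 11.8% of the *CREBfl/fl* list were found in that list alone. For *CREBfl/fl* regions with more than 100 and up to 200 fragments the share was 4.96%, and with at most 50 it was 43.5%.

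**Figure D3:**
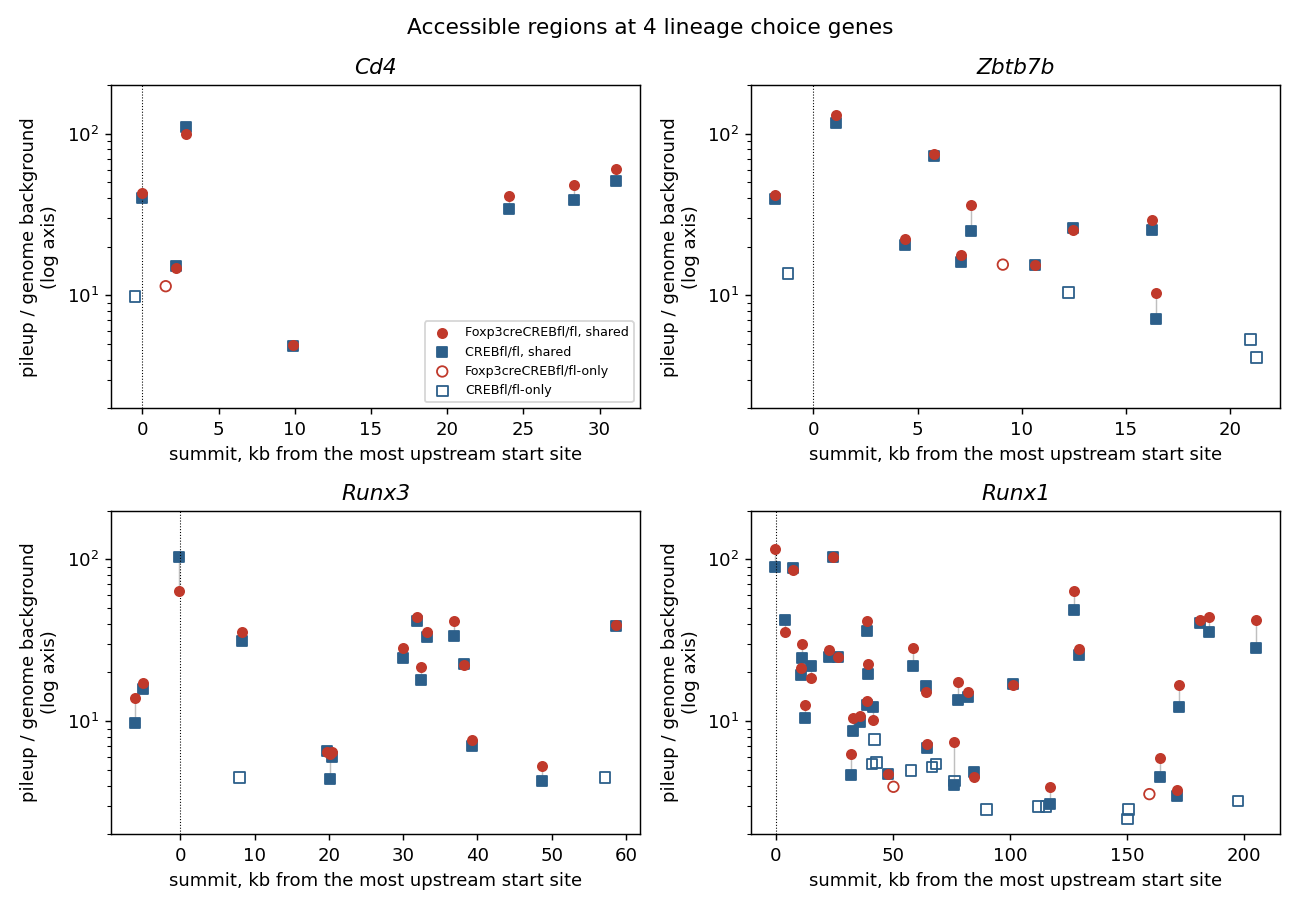
Summit pileup over the genome background (log axis) of every region of *Cd4*, *Zbtb7b*, *Runx3* and *Runx1* by distance in kb from the most upstream start site (dotted line), for *Foxp3creCREBfl/fl* (red circles) and *CREBfl/fl* (blue squares) Tregs; open symbols are regions found in 1 group only. The red and the blue points of a shared region mostly lie close together, and the pair at the start of *Runx3*, 64.1 and 104 times the background, is wide apart.

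*Runx3* (chr4:135120652-135177990, plus strand) has a distal promoter at its first exon and a proximal promoter 31.86 kb further in, over the start of the shorter transcript. It held 18 regions, of which 16 were shared, 2 were found only in *CREBfl/fl* and 0 only in *Foxp3creCREBfl/fl* Tregs. The distal promoter region (chr4:135120112-135120757) had its summit 0.22 kb before the start. Its pileup was 326 in *Foxp3creCREBfl/fl* and 880 in *CREBfl/fl* Tregs, 64.1 and 104 times the background. The ratio was -0.85 (-1.04 to -0.67), 1.8-fold lower in *Foxp3creCREBfl/fl* Tregs and -9.11 counting SDs from the median.

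This was the lowest ratio of the 74 shared regions on this scale. Of 4519 regions of the genome with a *CREBfl/fl* pileup within 1.25-fold, 4 were as low (0.0885%), as were 76 of 17901 promoter regions (0.425%). In *CREBfl/fl* Tregs the height of the region was at the 81.9th percentile of promoters, and in *Foxp3creCREBfl/fl* Tregs at the 59.6th. The ratio was -0.70 (-0.89 to -0.52) without the shift to the median. It was much smaller, -0.27 (-0.45 to -0.08), when the authors' fold over the background around each peak was used, and 6 of the 74 regions then had lower ratios, among them the *Runx1* regions at 4.15 kb (-0.38) and 15.02 kb (-0.32). That local background was 13.1 fragments in *Foxp3creCREBfl/fl* and 31.7 in *CREBfl/fl* Tregs, and the fold was 23.2 and 26.9 in *Foxp3creCREBfl/fl* and *CREBfl/fl* Tregs. The direction was the same on both scales, but the size depends on which background is divided out. Whether the peak itself adds to its local background was not tested. That background therefore does not show whether the surrounding signal differed.

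The called peak spanned 502 bp in *Foxp3creCREBfl/fl* against 646 bp in *CREBfl/fl* Tregs, and nearly all of the difference was on its upstream side. Called width also varies with depth and height, with medians of 226 and 239 bp over the *Foxp3creCREBfl/fl* and *CREBfl/fl* lists, and their part in this difference was not tested. It began at 135120252 in *Foxp3creCREBfl/fl* and at 135120112 in *CREBfl/fl* Tregs, while the summits were 5 bp apart. The part called only in *CREBfl/fl* Tregs held the 1 TGACG half-site of the region, 215 bp upstream of the summit, and 1 of its RUNX words, TGTGGT or its complement ACCACA. The other 2 RUNX words lay 83 and 91 bp downstream of the summit, as a pair, within the peak of both groups. Both stretches are shown, from chr4:135120201-135120251 and chr4:135120401-135120541, plus strand, with half-site and RUNX words in capitals.

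Runx3 distal promoter, half-site: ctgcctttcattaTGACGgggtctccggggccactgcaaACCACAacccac
Runx3 distal promoter, summit: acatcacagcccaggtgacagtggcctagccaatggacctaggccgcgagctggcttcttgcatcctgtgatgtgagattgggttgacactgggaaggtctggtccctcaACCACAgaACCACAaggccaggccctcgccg

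No other region of *Runx3* differed beyond counting error. The other 15 shared regions had a median ratio of -0.02 and ran from -0.16 to 0.37, and all 15 intervals included 0. At the proximal promoter, the region over the start had 223 fragments in *Foxp3creCREBfl/fl* and 351 in *CREBfl/fl* Tregs (-0.07, -0.32 to 0.17). Its neighbour over the first coding exon of the short transcript had 110 and 152 in *Foxp3creCREBfl/fl* and *CREBfl/fl* Tregs (0.11, -0.25 to 0.48). The highest ratio was at a region 6.08 kb before the start, with 71 fragments in *Foxp3creCREBfl/fl* and 82 in *CREBfl/fl* Tregs (0.37, -0.11 to 0.85). Both *CREBfl/fl*-only regions were small, with 38 fragments each, at 7.97 kb and at the 3' end.

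The surroundings of the gene lay at the median. Within 1 Mb of *Runx3*, 247 shared regions had a median ratio of 0.01, and within 5 Mb 815 had one of 0.03. Within 1 Mb, 8 regions were lower and 5 higher by 1.5-fold. A long noncoding gene on the other strand, *Gm16225*, ends next to the *Runx3* distal start, and ATAC-seq does not assign the open region between them to either gene.

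**Figure D4:**
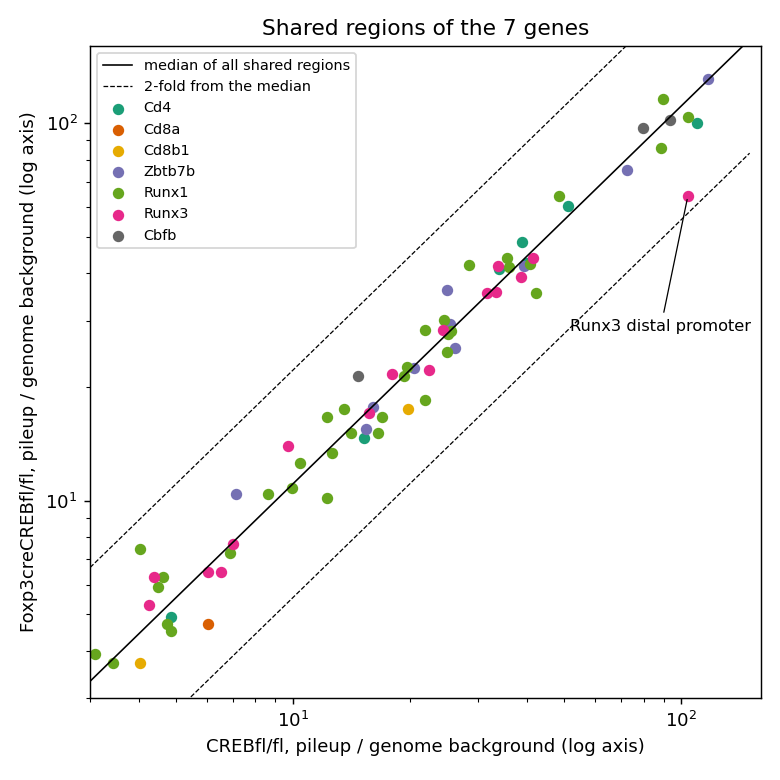
Summit pileup over the genome background of the 74 shared regions in *Foxp3creCREBfl/fl* (y) and *CREBfl/fl* (x) Tregs, both on log axes, coloured by gene; the solid line is the median of all shared regions and the dashed lines are 2-fold from it. All 74 points lie between the dashed lines, and among the strong regions the *Runx3* distal promoter, at 64.1 and 104 times the background in *Foxp3creCREBfl/fl* and *CREBfl/fl* Tregs, is nearest to the lower one.

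*Runx1* (chr16:92601466-92826149, minus strand) encodes the RUNX factor that acts from early thymocytes on. With 50 regions it held about as many as the other genes together, over a gene body of 225 kb. Of these 35 were shared. Another 2 were found only in *Foxp3creCREBfl/fl* Tregs, 5.41% of the gene's regions in that list against 7.07% over all regions. A further 13 were found only in *CREBfl/fl* Tregs, 27.1% against 16.8%. The median ratio was -0.01. Beyond counting error, 3 regions were lower (8.57%, against 7.88% of all regions compared) and 4 higher (11.4%, against 5.47%).

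The distal promoter of *Runx1* and a region at its proximal promoter were higher in *Foxp3creCREBfl/fl* Tregs on the pileup scale. The distal one had 588 fragments in *Foxp3creCREBfl/fl* and 757 in *CREBfl/fl* Tregs, 116 and 89.6 times the background, with a ratio of 0.22 (0.06 to 0.37). Of 5030 regions of like pileup, 82 were as high (1.63%). The region at the proximal promoter, with its summit 127.35 kb after the start, had 326 fragments in *Foxp3creCREBfl/fl* and 409 in *CREBfl/fl* Tregs (0.25, 0.04 to 0.47). On the scale of the authors' fold its ratio was 0.09 (-0.13 to 0.30). The adjoining region had its summit in a UTR of a shorter transcript, closer to the proximal start site. It had 143 and 215 fragments in *Foxp3creCREBfl/fl* and *CREBfl/fl* Tregs and a ratio of -0.01 (-0.32 to 0.30). The intervals of both regions overlap.

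Behind the distal promoter, in intron 2, 3 regions were lower. At 4.15 kb there were 180 fragments in *Foxp3creCREBfl/fl* and 357 in *CREBfl/fl* Tregs (-0.41, -0.67 to -0.14). Of 7062 regions of like pileup, 454 were as low as this one (6.43%). At 7.49 kb there were 438 and 747 in *Foxp3creCREBfl/fl* and *CREBfl/fl* Tregs (-0.19, -0.36 to -0.02), and at 15.02 kb 94 and 185 (-0.40, -0.77 to -0.03). Between the regions at 7.49 and 15.02 kb, the others at 10.87, 11.31 and 12.39 kb had ratios of 0.00, 0.14 and 0.12, with intervals that include 0. None of the 3 lower intervals excluded 0 without the shift to the median, where the ratios were -0.26, -0.04 and -0.25. On the scale of the authors' fold the region at 4.15 kb stayed lower (-0.38, -0.64 to -0.11), while those at 7.49 kb (-0.09, -0.26 to 0.08) and 15.02 kb (-0.32, -0.69 to 0.05) did not exceed counting error. The strongest region of the gene in *CREBfl/fl* Tregs, at 24.38 kb, had 531 fragments in *Foxp3creCREBfl/fl* and 876 in *CREBfl/fl* Tregs (-0.14, -0.30 to 0.02).

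Towards the 3' end, a region of intron 6 at 205.22 kb was higher, with 214 fragments in *Foxp3creCREBfl/fl* and 240 in *CREBfl/fl* Tregs (0.42, 0.14 to 0.69). On the scale of the authors' fold its ratio was 0.16 (-0.12 to 0.43). The highest ratio of the 7 genes was at a weak region of intron 2 at 76.09 kb, with 38 and 34 fragments in *Foxp3creCREBfl/fl* and *CREBfl/fl* Tregs (0.74, 0.03 to 1.45). Its counts were low and its interval wide. The *Foxp3creCREBfl/fl*-only regions had 18 and 20 fragments. The 13 *CREBfl/fl*-only regions were all in introns, and the strongest had 65, 47 and 46 fragments.

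The summit stretch of the region at 4.15 kb is shown because it holds both words, a TGACG half-site and an ACCACA RUNX word, in capitals (chr16:92821936-92822106, minus strand). The stretch of the distal promoter (chr16:92826025-92826054, minus strand) is shown for its pair of RUNX words.

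Runx1 intron, summit: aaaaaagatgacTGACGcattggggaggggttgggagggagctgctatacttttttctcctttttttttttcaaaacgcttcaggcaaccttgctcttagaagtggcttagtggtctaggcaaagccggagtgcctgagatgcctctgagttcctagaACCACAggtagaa
Runx1 distal promoter, RUNX pair: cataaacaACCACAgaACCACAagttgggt

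The distal promoters of *Runx1* and *Runx3* share this pair. On the strand of each gene, an unbroken run of 18 bases, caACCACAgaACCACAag, is the same in both, with 8 bp from the start of one RUNX word to the start of the next. The pair, TGTGGT repeated on the same strand with any 2 bases between, was found in 54 of 104845 regions (0.0515%), of which 5 were promoter regions, and at the 7 genes in these 2 regions only. Their accessibility differed in opposite directions, -0.85 at *Runx3* and 0.22 at *Runx1*, so that the shared word did not go with a shared direction.

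*Cbfb* (chr8:105170674-105217989, plus strand) encodes the partner of both RUNX factors. It held 4 regions, 3 of them shared, with a median ratio of 0.13. For all of them but the promoter region, the nearest protein-coding start site was that of *D230025D16Rik*. Its promoter had 521 fragments in *Foxp3creCREBfl/fl* and 791 in *CREBfl/fl* Tregs, a ratio of -0.02 (-0.18 to 0.14). A region just behind the 3' end had 109 and 124 in *Foxp3creCREBfl/fl* and *CREBfl/fl* Tregs (0.39, 0.01 to 0.78), at the edge of the counting error. The second strongest region, 54.46 kb after the start, had 493 and 674 in *Foxp3creCREBfl/fl* and *CREBfl/fl* Tregs (0.13, -0.04 to 0.30). A region of 27 fragments in a UTR at 47.01 kb was found only in *CREBfl/fl* Tregs.

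Over the 102 regions, RUNX words (TGTGGT on either strand) were found in 26 (25.5%), against 28.3% of all regions of like length. Among 300 bp windows around the summits the shares were 29.4% and 27.6%. *Runx1* held 15 of the 26, *Runx3* and *Cd8b1* 3 each, *Cd4* and *Zbtb7b* 2 each, *Cbfb* 1 and *Cd8a* 0. The shared regions with the word had a median ratio of -0.01 (23 regions) and those without it one of -0.02 (51 regions). The full element TGACGTCA was found in 0 of the 102 regions, against 1.09% of all regions, and the half-site TGACG, which is part of it, in 14 (13.7%), against 17.8% of all regions of like length.

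By direction, the half-site was in 4 of the 5 lower regions (the *Runx3* distal promoter, the *Cd4* intron 1 region and the *Runx1* regions at 4.15 and 15.02 kb), in 0 of the 6 higher ones and in 8 of the 63 others. Over all regions compared it was in 39.2% of the lower, 22.8% of the higher and 20.3% of the others. RUNX words were in 4 of the 5 lower, 2 of the 6 higher and 17 of the 63 other regions of the 7 genes, against 43.2%, 35.8% and 32.0% over all regions compared. These shares by direction were not matched for length. The 5 lower regions were 382 to 736 bp wide and the 6 higher ones 148 to 1871 bp. Median peak widths were 226 and 239 bp over the *Foxp3creCREBfl/fl* and *CREBfl/fl* lists. The part of length in these shares was not tested. A match is a word in the reference sequence and does not show that a factor was bound.

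Other genes of lineage choice were examined in the same way. Of the regions at 11 factors that act before or beside ThPOK, among them *Gata3*, *Tox*, *Myb*, *Tcf7* and *Bcl11b*, 279 could be compared. Their median ratio was -0.04, with 18 lower (6.45%) and 11 higher (3.94%). At 11 factors of the CD8 side or of the silencing of *Cd8* or *Zbtb7b*, among them *Patz1*, *Ikzf1*, *Socs1* and *Stat5b*, 151 could be compared. Their median was -0.03, with 22 lower (14.6%) and 6 higher (3.97%). At 15 genes of T cell receptor signaling, the list most like these genes, 275 could be compared. Their median was -0.03, with 29 lower (10.5%) and 15 higher (5.45%). The shares lower over all regions and at the 7 genes were 7.88% and 6.76%, and the shares higher 5.47% and 8.11%, as given above.

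Only 1 region of these 3 lists passed 2-fold and 5 counting SDs. It lay 8.99 kb into *Cd5*, which encodes a negative regulator of receptor signaling, with 70 fragments in *Foxp3creCREBfl/fl* and 222 in *CREBfl/fl* Tregs (-1.08, -1.49 to -0.69). The strongest group-only regions were those of *Zbtb7a* (117 fragments), *Ikzf1* (104) and *Cd28* (107) in *Foxp3creCREBfl/fl* Tregs and those of *Ets1* (208), *Socs1* (219) and *Cd28* (1403) in *CREBfl/fl* Tregs. Of all *CREBfl/fl* regions over 200 fragments, 0.278% were found in that list alone. Why the *Cd28* region of 1403 fragments (chr1:60747164-60747268) was among them was not tested. Chosen after its values were seen, a region of *Stat5b*, a factor downstream of IL-2 and IL-7, had a ratio close to that of the *Runx3* distal promoter, with 212 fragments in *Foxp3creCREBfl/fl* and 585 in *CREBfl/fl* Tregs (-0.88, -1.12 to -0.65). Also chosen afterwards, a region of *Tox*, which is needed for the CD4 lineage in the thymus, had 56 fragments in *Foxp3creCREBfl/fl* and 31 in *CREBfl/fl* Tregs (1.43, 0.78 to 2.12).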

How the data were processed

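ATAC-seq of splenic Tregs was deposited as 1 peak list per group, with 94499 peaks for *Foxp3creCREBfl/fl* and 100771 for *CREBfl/fl*; the 3 labelled libraries of a group were joined by the authors. Read pairs of 75 bp were trimmed with Trim Galore, aligned with Bowtie2, freed of duplicates, filtered with SAMtools and called with MACS2, by the study's methods; tool versions were not stated. For each peak the authors deposited a score (10 times the -log10 q, cut to a whole number), a fold (the ratio of summit pileup to background), -log10 p from a Poisson model, and the summit position. Total read numbers are not known.

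Positions were read as GRCm38 with GENCODE M21, although the methods name mm9: a *Foxp3creCREBfl/fl* peak lay within 1 kb of 57.2% of 54050 start sites, and a *CREBfl/fl* peak of 57.8%, against 13.0% and 13.9% after a shift by 100 kb, and 0 peaks lay past a chromosome end. The methods also name calling without a local background, whereas 29.6% of *Foxp3creCREBfl/fl* and 32.6% of *CREBfl/fl* peaks had the genome background and the rest a higher one. Summit pileup and background were recovered from fold and -log10 p. The -log10 p recomputed from them was within 0.002 of the authors' for 99.97% of *Foxp3creCREBfl/fl* and 99.94% of *CREBfl/fl* peaks. Of 82082 shared regions, 82006 had both pileups recovered and were compared. Where a region held several peaks of a list, the highest was used. Ratios have exact conditional binomial 95% intervals, shares Wilson intervals. The recovery and the intervals were tested on simulated data.

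Regions within 1 kb of a protein-coding start site are called promoter regions. Exact matches to motif words were counted over whole regions, both strands. Sequences are from the RefSeq GRCm38.p6 genome. For each gene the text names its promoter regions, the 2 strongest shared regions in *CREBfl/fl*, the group-only regions (the 3 strongest where there were over 6), and regions past 2-fold and 5 counting SDs or, with none, the lowest and highest ratio, as well as all regions whose interval left out 0. In the other lists, regions past that threshold and the strongest group-only regions are named. One marker gene is not reported here. Members and lists were chosen with earlier results of these data known. Alternatives were another overlap, q threshold, window, depth, zero, pairing of summits and the authors' fold. Python 3.11.15, NumPy 2.4.6, pandas 2.3.3, SciPy 1.17.1 and Matplotlib 3.10.9 were used.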

Additional observations from a re-analysis of the deposited data

How the results depend on the processing

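No paired analysis was possible because each group is 1 list with its replicates joined, and no replicate could be left out for the same reason. Of 113 ratios of named regions under 6 alternatives, 100 kept their call as lower, higher or neither. The intervals of 12 no longer left out 0 and that of 1 newly did. The 113 ratios include those of regions called neither in the main setting. Only the *Runx3* distal promoter, the *Runx1* distal promoter and the *Zbtb7b* internal promoter that was higher kept a call of lower or higher throughout. Every other region called lower or higher lost its call under at least 1 alternative. Of ratios whose interval had left out 0, 0 changed sign. Some ratios near 0 did, such as that of the *Cd4* promoter, -0.06 and without the shift to the median 0.09. The *Runx3* distal promoter stayed lower under all 6, at -0.87 to -0.27, where -0.27 came from the authors' fold. With no shift of the zero the median ratio of the 74 regions was 0.13, with 1 lower and 16 higher regions; with the authors' fold 3 were lower and 2 higher. At 2-fold and 5 counting SDs there were 0 and 0, at 1.5-fold 1 and 1. *Foxp3creCREBfl/fl*-only regions numbered 7 where at least 50% of a region had to be covered by the other list and 2 at a -log10 q of at least 5. They numbered 9 with 50 kb windows (where 140 regions were shared) and 0 at a -log10 p of at least 8. At that threshold, with *CREBfl/fl* pileups and backgrounds divided by the difference in depth, 3 *CREBfl/fl*-only regions were left. The causes of these changes were not tested, apart from the wider window, which holds more regions. Counts below about 50 fragments limit what weak regions can show.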
